A study of Arabidopsis thaliana with 10 samples.

Results

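The genes described here are 135 protein-coding genes of *Arabidopsis thaliana* whose small RNA signal was higher in pollen expressing an RNase III-like protein in the vegetative cell than in wild-type pollen. They were selected from 27165 protein-coding genes, and 33271 loci in all, by a rule on measured values. Signal was added up per gene over RNAs of 18 to 30 nt. A gene was kept when both *pLAT52::RTL1* libraries reached at least 15 RPM and at least 3 times the higher WT Col-0 library. The rule left out 5 genes by name, the *RTL1* gene among them. The contrast between *pLAT52::RTL1* and WT Col-0 therefore chose the genes and is given below as a description, without a test.

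Mature pollen of Col-0 plants grown in a greenhouse under a photoperiod of 16 h was sequenced in 10 small RNA libraries, 2 for each of 5 groups. WT Col-0 is untransformed pollen. In *pLAT52::RTL1* pollen, a Myc-tagged RTL1 is driven by a tomato promoter that is active from the late microspore stage onwards and then in the vegetative cell, and in *pMGH3::RTL1* pollen the same protein is driven by a promoter of the male germline. Libraries of a construct come from independent homozygous transgenic lines, so line and replicate cannot be told apart. The other libraries come from pollen sorted by fluorescence out of plants heterozygous both for *nrpd1a-3*, a mutant allele of the largest subunit of RNA polymerase IV, and for a linked *pLAT52::DsRed* reporter. DsRed-positive grains (WT FTL) carry the wild-type allele and the reporter, and DsRed-negative grains (*nrpd1a-3* FTL) carry the mutant allele in gametophytes of a heterozygous mother. The labels and the methods call the libraries of a group biological replicates, but for WT Col-0 they do not say whether these came from separate plantings.

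RTL1 cuts double-stranded RNA and, when overexpressed, prevents many small interfering RNAs (siRNAs) from being made. Plant siRNAs are produced by Dicer-like enzymes in sizes of mainly 21, 22 and 24 nt, of which the 24-nt class depends largely on RNA polymerase IV. Short RNAs can also be fragments of a decaying messenger RNA, and such fragments do not keep to Dicer sizes. The vegetative cell forms the pollen tube and carries a large store of messenger RNAs for tip growth, cell wall remodelling, vesicle traffic and ion transport. The signal on a gene is thus a measure of short RNAs that match it and not of its messenger RNA. In whole pollen, fewer cells of a type and less RNA per cell cannot be told apart.

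The values were hit-weighted reads scaled to RPM by the authors, and 1 read was worth between 0.430 and 1.46 RPM. Listed signal summed to between 3.74334e+06 and 8.67291e+06 RPM per library, and between 4.29691e+06 and 1.03496e+07 hit-weighted reads were listed. Signal on ribosomal and transfer RNA genes spanned 1.16359e+06 to 2.9774e+06 RPM in WT Col-0 and 1.74194e+06 to 2.50904e+06 RPM in *pLAT52::RTL1*, and the groups overlapped. Among 21 marker genes of the vegetative cell and pollen tube the summed signal was 7441 and 17622 RPM in WT Col-0. In *pLAT52::RTL1* it was 16353 and 20066 RPM, again with overlap. Per gene, the 18 markers at 15 RPM or more had a higher median ratio to WT Col-0 than the other coding genes at that level. It was 1.84 in the markers against 1.31 in those genes. Of the 18 markers 1, *ACT12*, met the rule. Sperm cell markers (7 genes) held 98.3 and 148 RPM in WT Col-0 and 122 and 153 RPM in *pLAT52::RTL1*, and 10 tapetum markers held 48.0 and 42.3 against 45.7 and 60.1 RPM. No marker of the sperm, tapetum or green tissue lists was among the 135 genes. However, only 4 sperm, 0 tapetum and 10 green tissue markers were at 15 RPM or more in *pLAT52::RTL1*. Of all coding genes at that level 3.41% met the rule, so lists this small can give 0 and nothing is read from it. The part of cell composition in the result was not tested.

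Of the 3960 coding genes that reached 15 RPM in both *pLAT52::RTL1* libraries, the 135 make up 3.41%, and the remaining 3825 genes serve as the comparison set throughout. With the direction turned round, 0 coding genes had both WT Col-0 libraries at 15 RPM or more and at 3 times the higher *pLAT52::RTL1* library, which is a description of the same values. This limit is strict, and genes that lost less signal are not counted by it. By DESeq2 and without this limit, the paper reports protein-coding genes with reduced siRNA levels in *pLAT52::RTL1* pollen. With *pMGH3::RTL1* in place of *pLAT52::RTL1*, 12 of 3451 genes (0.348%) met the rule. Just inside the limit of 3 lay *AT2G33255* at 3.02 times, *AT5G21080* at 3.02 times and *AT1G02740* at 3.005 times the higher WT Col-0 library. Just outside lay *AT1G55530*, *ACD5* and *ER-ANT1*, each at 2.99 times.

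**Figure D1:**
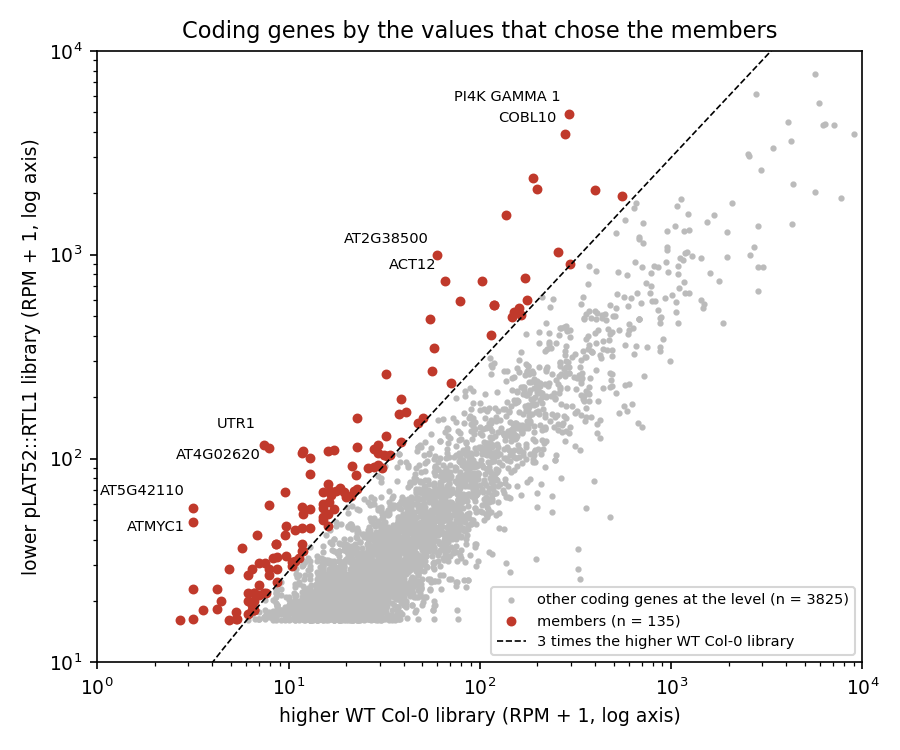
Each point is a coding gene with at least 15 RPM in both *pLAT52::RTL1* libraries, placed by the higher WT Col-0 library and the lower *pLAT52::RTL1* library (RPM + 1, log axes), and the dashed line marks 3 times the higher WT Col-0 library. The 135 members (red) lie above the line by construction and reach from the low levels of *ATMYC1* to the high levels of *PI4K GAMMA 1* and *COBL10*, while the 3825 other genes (grey) lie below it, 11 of them beyond the axis limit of 10000 and not drawn.

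In sum, the 135 genes held 3989 and 5777 RPM in the WT Col-0 libraries and 51494 and 41137 RPM in the *pLAT52::RTL1* libraries. The group means were 4883 ± 1265 and 46315 ± 7323 RPM (SD, n = 2), a ratio of 9.48. The same genes held 9531 and 9099 RPM in *pMGH3::RTL1*. In the sorted pollen they held 6513 and 6679 RPM with the wild-type allele and 11324 and 15583 RPM with *nrpd1a-3*. They took 0.466% and 0.338% of all coding signal in WT Col-0 against 4.80% and 2.34% in *pLAT52::RTL1*. The summed signal of all other coding genes had a ratio of 1.07 between these groups, but 1 gene alone averaged 6.66e+05 RPM of it in WT Col-0. Per gene, the median ratio of means with 1 RPM added was 1.31 in the 3825 comparison genes and 5.87 in the members. A few genes carried much of the members' sum, with 28.5% of it in *pLAT52::RTL1* on the top 3 genes and 55.9% on the top 10. Only 11 genes exceeded 1000 RPM on average in *pLAT52::RTL1*, and 76 stayed under 100 RPM. Per gene, the ratio of the lower *pLAT52::RTL1* to the higher WT Col-0 library ran from 3.005 to 26.0 with a median of 4.07, and 41 genes reached 5 times. Scaling to the summed signal or to the microRNA genes left a ratio of the summed values of 8.40 or 7.74.

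**Figure D2:**
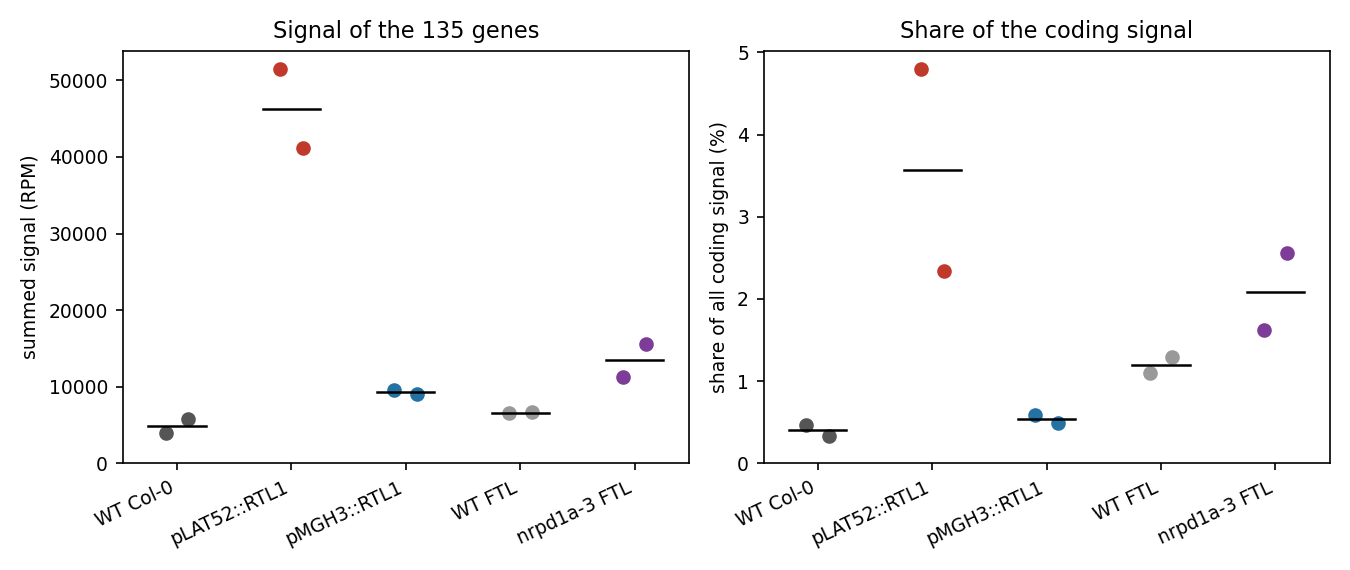
Points are libraries and bars are group means of the summed signal of the 135 genes (left, RPM) and of its share in all coding signal (right, percent). Both *pLAT52::RTL1* libraries, at 51494 and 41137 RPM, stand above every other library, and the *nrpd1a-3* FTL points (11324 and 15583 RPM) lie above those of WT FTL (6513 and 6679 RPM).

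The highest levels are given first. *PI4K GAMMA 1* (AT2G40850, chromosome 2, 17051085 to 17053754 of TAIR10.1, plus strand, 2 exons) is a phosphoinositide 4-kinase of the gamma type. It had 187 and 293 RPM in WT Col-0 and 4917 and 5512 RPM in *pLAT52::RTL1*, against 447 and 391 RPM in *pMGH3::RTL1*. The sorted pollen gave 258 and 202 RPM (WT FTL) and 448 and 503 RPM (*nrpd1a-3* FTL), so both *pLAT52::RTL1* libraries stood apart from all others. *COBL10* (AT3G20580, chromosome 3, 7187699 to 7190648, minus strand) encodes a COBRA-like protein anchored in the pollen tube membrane that is needed for directed tube growth. Its signal was 167 and 276 RPM in WT Col-0 and 3897 and 5176 RPM in *pLAT52::RTL1*. In the remaining groups it lay between 189 and 589.9 RPM, lowest in WT FTL and highest with *nrpd1a-3*. *AT5G20390*, a glycosyl hydrolase, had 154 and 188 RPM in WT Col-0 and 2379.7 and 4546 RPM in *pLAT52::RTL1*, with replicate 2 the higher line. *SVL5*, an SHV3-like membrane-anchored protein, had 188 and 398 against 3423 and 2075 RPM, but 25.8% of its 21-mers occur elsewhere in the genome. *AT3G61160*, a protein kinase, had 142 and 198 against 2121 and 2093 RPM.

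Both cytoskeletal genes near the top are known for their expression in pollen. *TUA1* (AT1G64740, chromosome 1, 24050006 to 24052487, plus strand), an alpha-tubulin, had 85.3 and 137 RPM in WT Col-0 and 1838 and 1567 RPM in *pLAT52::RTL1*. *ACT12* (AT3G46520, chromosome 3, 17128211 to 17131466, plus strand), an actin of late pollen, had 33.6 and 64.7 RPM in WT Col-0 and 1891 and 738 RPM in *pLAT52::RTL1*. Its libraries did not overlap between these groups, but the transgenic lines differed by more than the whole WT Col-0 level. Among 91 genes of the actin cytoskeleton list, 21 were at 15 RPM or more, with a median ratio of 2.05. Of those 21 genes *ACT12* alone met the rule (4.76%), near the 3.41% of all coding genes at that level.

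Relative to their WT Col-0 level, some weakly covered genes were among those that rose most by the values that chose them. *AT5G42110* (chromosome 5, 16831696 to 16832357, minus strand), which encodes an uncharacterized protein, had 1.29 and 2.17 RPM in WT Col-0 and 231 and 56.3 RPM in *pLAT52::RTL1*. *ATMYC1*, a bHLH transcription factor known from epidermal cell patterning, had 0.86 and 2.17 against 67.0 and 47.7 RPM. *UTR1* (AT2G02810), a UDP-galactose transporter, had 6.45 and 5.42 against 175 and 115 RPM. In these 3 genes a few reads make up the WT Col-0 value, so that the ratio is imprecise. *AT2G38500*, an oxygenase of the 2-oxoglutarate and Fe(II) family, combined a large ratio with a high level, with 18.9 and 58.5 RPM in WT Col-0 and 1436 and 994 RPM in *pLAT52::RTL1*, and stayed between 27.7 and 77.8 RPM in all remaining libraries.

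The sequences just before the annotated start of 4 of the leading genes are shown because the genes were high in the same pollen and did not all share a leading RNA size. Each is the 150 bases upstream of the TAIR10.1 gene start from RefSeq, read 5′ to 3′ on the gene's strand. Capitals mark AGAAA or GTGA, short elements described in pollen promoters, and TATAAA, the TATA box, on either strand, so that TTTCT, TCAC and TTTATA are matches on the other strand.
*PI4K GAMMA 1*, chr2:17050935-17051084, plus strand: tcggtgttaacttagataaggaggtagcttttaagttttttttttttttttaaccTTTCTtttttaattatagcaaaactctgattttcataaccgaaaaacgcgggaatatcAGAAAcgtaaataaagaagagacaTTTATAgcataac
*COBL10*, chr3:7190649-7190798, minus strand: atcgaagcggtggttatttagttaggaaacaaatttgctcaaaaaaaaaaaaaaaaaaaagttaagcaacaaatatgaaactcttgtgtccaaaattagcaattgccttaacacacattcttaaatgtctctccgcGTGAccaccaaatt
*ACT12*, chr3:17128061-17128210, plus strand: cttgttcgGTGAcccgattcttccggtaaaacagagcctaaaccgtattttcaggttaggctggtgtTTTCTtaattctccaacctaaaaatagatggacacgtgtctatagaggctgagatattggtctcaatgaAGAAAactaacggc
*AT2G38500*, chr2:16119188-16119337, minus strand: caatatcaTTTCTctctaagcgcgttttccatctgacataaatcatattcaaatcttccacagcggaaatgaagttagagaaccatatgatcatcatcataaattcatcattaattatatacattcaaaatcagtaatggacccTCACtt
In these 4 windows the *PI4K GAMMA 1* sequence held 2 AGAAA and 1 TATAAA matches and the *ACT12* sequence 2 AGAAA and 1 GTGA. Over windows from 250 bases before to 50 bases after the start, in which neighbouring motifs may share letters, AGAAA was present in 90.23% of 133 member promoters and in 88.49% of 27443 coding promoters. GTGA was present in 83.46% against 84.43% and TATAAA in 52.63% against 52.15%. The shares were thus near those of all promoters for each motif.

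Pectin enzymes and their inhibitors, which set wall stiffness in the growing pollen tube, gave 7 of the 135 genes, or 9.21% of the 76 list genes at 15 RPM or more, beside the 3.41% of all coding genes at that level. *AT3G14040*, a pectin lyase-like protein, had 280.3 and 551 RPM in WT Col-0 and 2745 and 1948 RPM in *pLAT52::RTL1*, but 46.9% of its 21-mers are repeated elsewhere, which makes its value uncertain. *AT5G48140* of the same superfamily had 212 and 294 against 1625 and 901 RPM. *PMEI1*, an inhibitor of pectin methylesterase, had 44.7 and 56.4 against 348 and 365 RPM, so that the lines agreed closely. *EDA24*, *AT5G07420*, *AT5G27870* and *AT5G50040* completed the group with mean ratios from 4.59 to 11.9. The whole list had a median ratio of 1.43 at this level, near the 1.31 of all other coding genes.

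Proton pumps, which acidify vacuoles and vesicles, gave 4 genes of 14 list genes at 15 RPM or more (28.6%), all of them subunits of the vacuolar ATPase. *AT4G02620*, subunit F, had 6.88 and 3.25 RPM in WT Col-0 and 111 and 272 RPM in *pLAT52::RTL1*. *AT3G28710* had 10.8 and 8.67 against 103 and 56.7 RPM, and its neighbour *AT3G28715*, with the same product name, had 3.01 and 3.25 against 17.4 and 22.4 RPM. Since 12.9% and 13.6% of their 21-mers recur in the genome, reads may be split between them. *AVA-P1*, a subunit of the membrane ring, had 10.8 and 5.96 against 69.5 and 44.8 RPM. The 14 genes had a median ratio of 1.43.

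The other lists gave few genes. Members were 4.55% of 44 calcium and receptor signalling genes at 15 RPM or more. They were 4% of 25 arabinogalactan proteins and extensins and 4.76% of 21 sugar and ion transport genes at that level. These shares are near the 3.41% of all coding genes at the level. Calcium and receptor signalling (44 genes at 15 RPM or more) gave *CPK20*, a calcium-dependent kinase of the pollen tube, with 9.04 and 11.9 against 252 and 100.1 RPM, and *RALFL11*, a small secreted peptide, with 2.87 and 4.70 against 50.8 and 35.6 RPM. For *RALFL11*, 45.6% of 21-mers recur elsewhere. Arabinogalactan proteins and extensins gave *ELP* with 3.87 and 3.25 against 15.1 and 15.3 RPM, the lowest mean *pLAT52::RTL1* level of all members. Sugar and ion transport gave *CHX2*, a cation/H+ exchanger, with 9.90 and 10.8 against 158 and 108 RPM. Of 28 ribosomal protein genes and 10 genes of small RNA biogenesis and RNA decay at 15 RPM or more, 0 met the rule. Both lists are too small to tell 0 from a share of 3.41%.

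The curators' notes in the reference name pollen for 36 of 133 annotated members (27.07%), against 9.936% of the other genes at the level and 3.895% of all coding genes. The members lay on all 5 chromosomes, with 18 to 37 genes each. Their median length was 2104 bases against 2713 for the other genes at the level and 2110 for all coding genes. Only 2 pairs of members were neighbours, *AT3G28710* with *AT3G28715* and *AT3G54680* with *SETH3*.

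An overlapping gene on the opposite strand was annotated for 38 of 133 members (28.57%), against 19.83% of the other genes at the level. The values carry no strand, so reads in an overlap cannot be assigned. Noncoding partners on the opposite strand were not compared. Among 36 coding partners on the opposite strand with listed signal, 0 exceeded their member in *pLAT52::RTL1*, 20 had under 0.1 times its level, and their median ratio to WT Col-0 was 1.39. The members were chosen to be high in these libraries, so the comparison with their partners is a description. *AT2G40860*, which overlaps *PI4K GAMMA 1* by 257 bases, had 8.17 and 13.01 RPM in WT Col-0 and 5.54 and 14.3 RPM in *pLAT52::RTL1*, and its groups overlapped. The 38 members with an opposite-strand overlap of any gene type had a median ratio of 6.78, and the 95 annotated members without one had 6.63. These ratios are the values that chose the members, so no more is read from their likeness.

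Reads of some members belong to another locus. *AT1G76065*, an LYR family protein, holds *MIR835*, and *AT1G70650*, a zinc finger protein, overlaps *MIR777*. In *pLAT52::RTL1* these microRNA genes had 0.859 and 0.957 times the level of their hosts, so that most of the host signal may lie at the microRNA. *AT2G33255* contains *MIR8170*, for which no value was listed. *AT3G02468*, for which the reference used here gave no entry, had 64.0 and 118 RPM in WT Col-0 and 1037 and 565 RPM in *pLAT52::RTL1*. *SAMDC*, the S-adenosylmethionine decarboxylase of polyamine synthesis, had 64.4 and 118 against 1037 and 565 RPM, so that both IDs appear to count the same reads, and both are among the 135. Without these genes and those with over 10% repeated 21-mers, 123 genes remained, with 3107 and 4323 RPM in WT Col-0 and 42129 and 34848 RPM in *pLAT52::RTL1*.

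RNA size did not follow 1 pattern in these genes. Summed over the 135, both *pLAT52::RTL1* libraries peaked at 23 nt, with 20.1% and 22.5% of the signal, while the WT Col-0 libraries peaked at 24 and 21 nt and the other coding genes at the level peaked at 24 nt in both *pLAT52::RTL1* libraries. The ratio of *pLAT52::RTL1* to WT Col-0 was 4.94 at 18 to 20 nt, 8.70 at 21 and 22 nt, 12.6 at 23 and 24 nt and 23.7 at 25 to 30 nt. In the other coding genes at the level it was 0.799, 0.950, 1.21 and 2.01, so the order of the classes was the same outside the group. In the members, the share at 25 to 30 nt differed between the *pLAT52::RTL1* lines, with 16.4% in replicate 1 and 5.49% in replicate 2. Their shares also differed within WT Col-0, where replicate 2 was richer in short RNAs (36.4% against 18.5% at 18 to 20 nt). These shares weight genes by their level. Taking each member's own share, the median at 21 and 22 nt was 22.5%, and 26.0% without replicate 1 of *pLAT52::RTL1*.

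**Figure D3:**
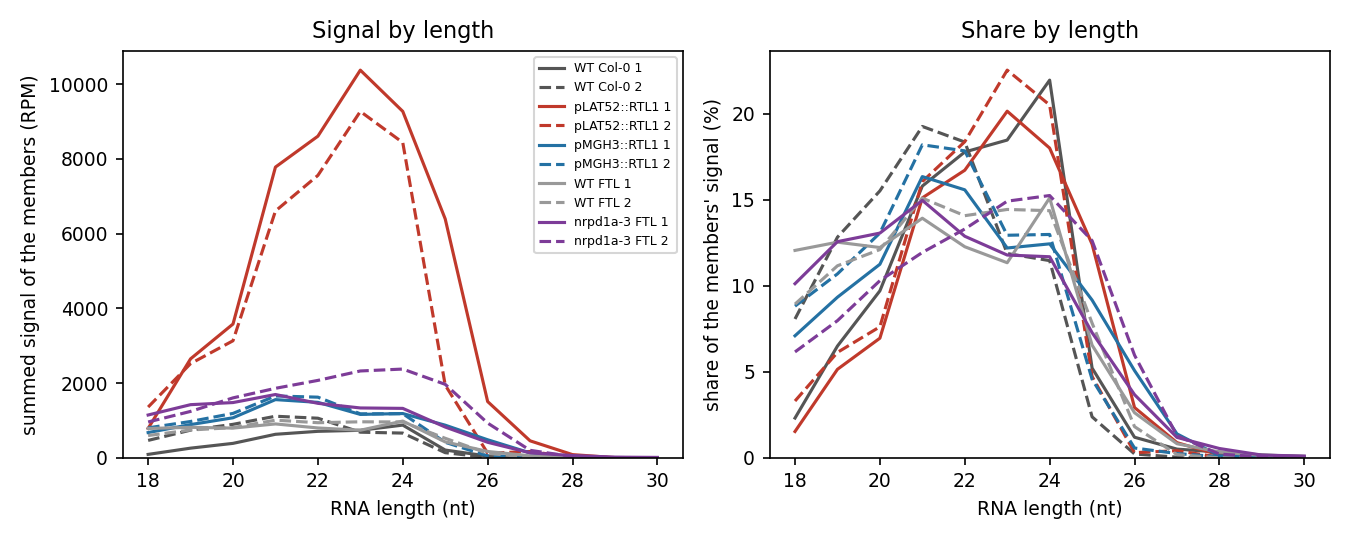
Lines show the summed signal of the 135 genes at each RNA length in each library (left, RPM) and its share in that library's sum (right, percent), with solid lines for replicate 1 and dashed lines for replicate 2. Both *pLAT52::RTL1* lines peak at 23 nt, at 20.1% and 22.5% of their signal.

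Some of the named genes had most of their signal at 1 length. *PI4K GAMMA 1* had 89.7% and 88.2% of its *pLAT52::RTL1* signal at 24 nt, *COBL10* had 87.9% and 90.7% at 23 nt, and *AT2G38500* had 72.9% and 77.2% at 21 nt. *TUA1* peaked at 22 nt with 54.5% and 60.3%. *ACT12* peaked at 23 nt with 39.5% and 36.1%, and 47.4% and 47.7% lay at 21 and 22 nt together. *UTR1* had 81.9% and 85.9% at 25 nt, and *AT4G02620* had 76.2% and 91.2% at 18 nt, lengths outside the usual Dicer sizes. In each of these genes both independent lines peaked at the same length. *AT5G42110* did not, with a peak at 25 nt in replicate 1 and at 21 nt in replicate 2.

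Among members with at least 30 RPM in both *pLAT52::RTL1* libraries, the 21 and 22 nt share was lowest in *AT5G55980*, a serine-rich protein (1.60%), in *AT4G02620* (1.67%) and in *CPK20* (3.51%). It was highest in *AT1G70650* (94.5%), *AT1G19110* (88.1%) and *AT5G50040* (80.9%). The first of these has the *MIR777* overlap, and the other 2 encode a protein like the heavy chain of trypsin inhibitors and a pectin methylesterase inhibitor-like protein. The peak length was equal in both lines for 97 of 135 members (71.9%) and for 67.6% of the other genes at the level. A single length held at least 50% of the signal in 49 members (36.3%) and in 36.0% of the other genes, so sharp peaks were as common outside the group. In WT Col-0 the corresponding shares were 10.4% and 24.9%. Per gene, the *pLAT52::RTL1* peak lay at 24 nt in 26.7% of members against 65.36% of the other genes, at 21 nt in 11.1% against 20.08%, at 22 nt in 19.3% against 5.10%, at 23 nt in 17.0% against 5.41% and at 25 nt in 14.1% against 1.18%. In WT Col-0 these shares were 26.7% against 51.8%, 25.2% against 28.5%, 20.7% against 8.81%, 13.3% against 5.78% and 1.48% against 0.209%. The members thus differed from the other genes at 22, 23 and 24 nt in WT Col-0 already.

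**Figure D4:**
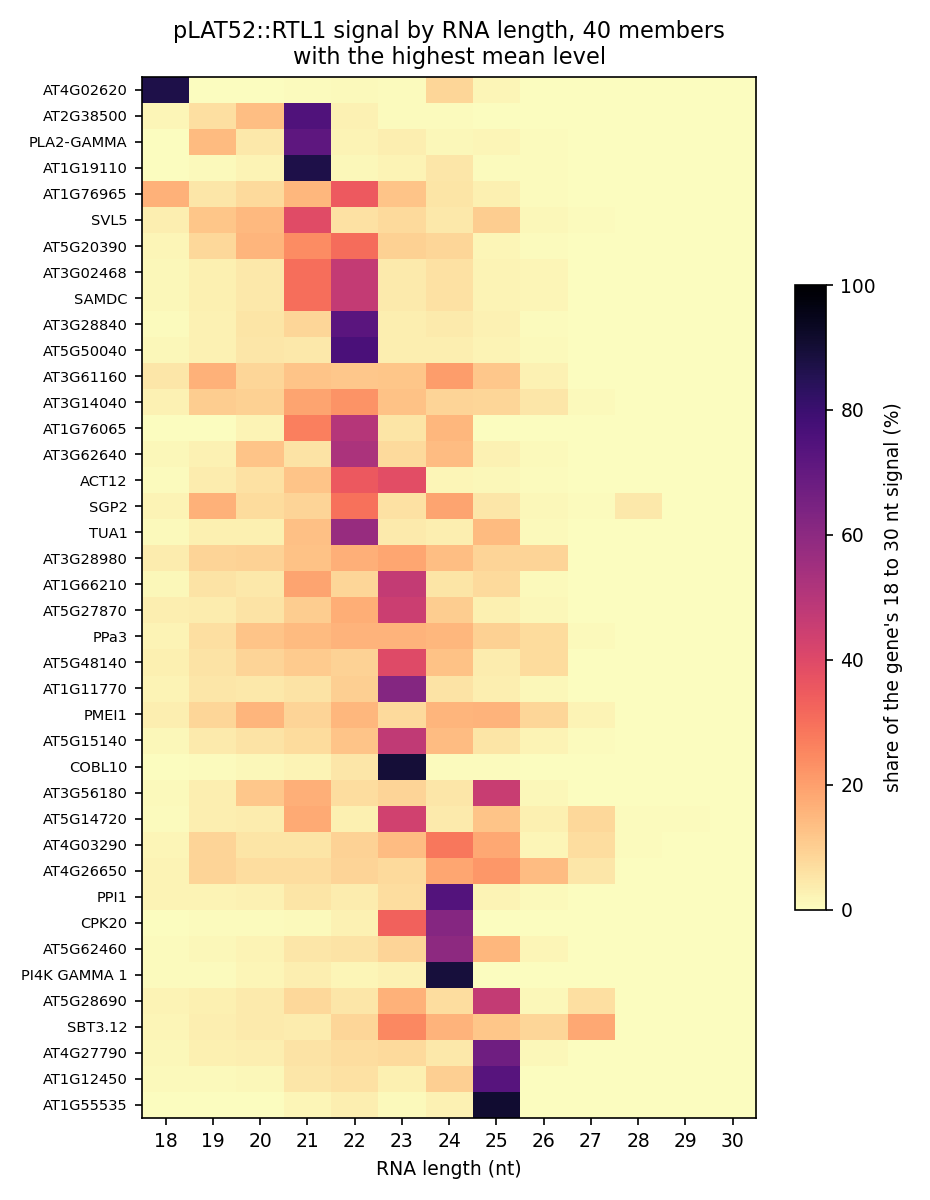
Rows are the 40 members with the highest mean level in *pLAT52::RTL1*, ordered by mean RNA length, columns are RNA lengths from 18 to 30 nt, and colour is the share of the gene's signal at that length (percent, mean of both libraries). Dark cells mark genes with 1 leading length, such as *AT4G02620* at 18 nt, *AT2G38500* at 21 nt, *COBL10* at 23 nt and *PI4K GAMMA 1* at 24 nt, while *AT3G61160* and *AT3G14040* spread over many lengths.

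Whether the RNAs on these genes need RNA polymerase IV was examined in the sorted pollen, whose libraries took no part in the selection. Signal on the members was not lower in *nrpd1a-3* FTL. Of all 135 genes, 75 had both *nrpd1a-3* FTL libraries above both WT FTL libraries and 5 had both below, while among the other coding genes at the level 21.2% lay above and 38.7% below. The summed signal was 2.04 times that of WT FTL. Scaled to the summed signal, 29 members (21.5%) lay above and 11 (8.15%) below, against 10.17% and 51.27% of the other genes. Scaled to the microRNA genes, 60 (44.4%) lay above and 4 (2.96%) below, against 21.54% and 37.28%. With limma on log2(RPM + 1) over 7334 loci, 106 members passed the filter of a mean of 12 hit-weighted reads. At a Benjamini-Hochberg adjusted p of 0.05, 0 of them were higher and 0 lower, and limma-voom also called 0 and 0. By limma, 0.0682% of all loci were higher and 21.7% lower at this threshold. Among the 3588 tested coding genes, 3 were called higher and 199 lower. At an unadjusted p under 0.05, limma gave 4 members higher and 0 lower, against 2.15% and 41.0% of all loci. At the same unadjusted limit limma-voom gave 7 members higher and 0 lower. Without *nrpd1a-3* FTL replicate 1, limma called 13 members (12.4%) higher and 1 lower, against 3.26% and 43.6% of all loci. The methods state that both pollen populations were sorted simultaneously, but no source used here ties the replicate numbers to a sort. With the replicate number as a block, 36 of 106 members (34.0%) were called higher and 0 lower, against 9.33% and 48.2% of all loci. That fit had 1 residual degree of freedom and unlimited prior ones, against 2 and 7.72 in the main fit. Its variances thus came wholly from the trend over loci, as they did without *nrpd1a-3* FTL replicate 1. The parts of the pairing and of this pooled variance in the higher count cannot be told apart. The median log2 difference was 0.84 over the tested members, -0.97 over all tested loci and 0.04 over the tested coding genes. Signal on ribosomal and transfer RNA genes was also higher in *nrpd1a-3* FTL, at 5.27313e+06 and 5.21907e+06 RPM against 2.66119e+06 and 3.47328e+06 RPM, as was the summed signal of the vegetative cell markers (14699 and 13272 against 6917 and 6202 RPM). The tapetum markers were lower, at 5.06 and 2.02 against 46.4 and 25.4 RPM. The part of these shifts in the difference was not tested.

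By values, *PI4K GAMMA 1* was 2.07 times, *COBL10* 2.56 times and *AT3G61160* 2.97 times as high in *nrpd1a-3* FTL as in WT FTL, none of them past the threshold. The smallest unadjusted p-values, chosen after the values were seen, belonged to *AT1G07330*, *AT5G50040*, *AT3G01250* and *AT4G27790*, the last an EF-hand calcium-binding protein. *AT4G27790* had 96.1 and 53.0 RPM in WT FTL against 221 and 189 RPM in the mutant, a log2 difference of 1.51 with an adjusted p of 0.0981 from limma. The adjusted p was 0.0829 for *AT1G07330*, 0.0838 for *AT5G50040* and 0.0907 for *AT3G01250*. The genes with both mutant libraries lower were *BGLU29*, a beta-glucosidase, *ATHB-15*, a homeodomain factor known as a microRNA target, *PHS1*, a phosphatase of microtubule control, *AT1G22720*, a protein kinase, and *AT1G78140*, a methyltransferase. *BGLU29* had 11.4 and 15.7 RPM in WT FTL against 0.583 and 0.734 RPM in the mutant, and its *pLAT52::RTL1* signal was 81.6% at 23 and 24 nt. *ATHB-15* had 12.8 and 7.24 against 2.01 and 0.673 RPM. These are few reads, and neither gene passed the filter for the test.

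**Figure D5:**
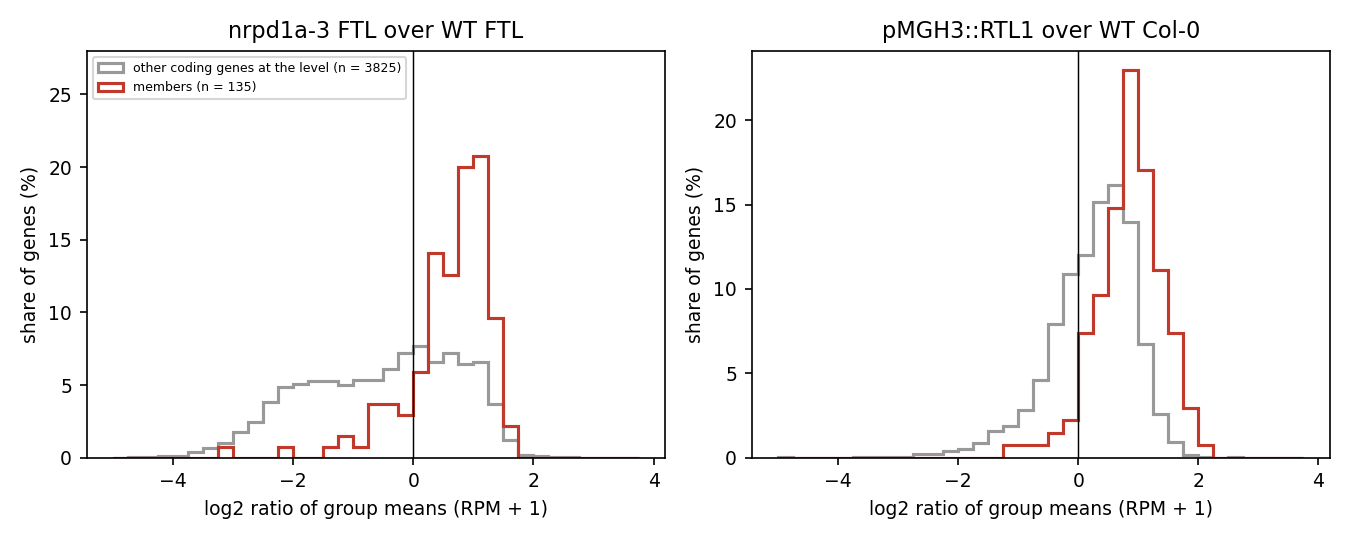
Histograms give the share of genes (percent) by the log2 ratio of group means (RPM + 1) for *nrpd1a-3* FTL over WT FTL (left) and *pMGH3::RTL1* over WT Col-0 (right), with members in red (n = 135) and other coding genes at the level in grey (n = 3825). Members centre near 1.70 times in the left panel, where the others centre near 0.780 times, and near 1.84 against 1.27 times in the right panel, which shares the WT Col-0 libraries with the selection.

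Signal in *pMGH3::RTL1* pollen stayed below that in *pLAT52::RTL1* pollen for nearly all members. Both *pLAT52::RTL1* libraries were above both *pMGH3::RTL1* libraries for 132 of 135 genes, and for 134 when scaled to the summed signal or to the microRNA genes. Among the other genes at the level the shares were 34.35%, 60.94% and 55.19%, and since the rule required high *pLAT52::RTL1* libraries, the members' count is a description. Both *pMGH3::RTL1* libraries were above both WT Col-0 libraries for 98 members and for 42.8% of the other genes at the level. This comparison uses the WT Col-0 libraries in which the members were required to be low, so no more is read from it. The vegetative cell markers summed to 19487 and 19835 RPM in *pMGH3::RTL1* against 7441 and 17622 RPM in WT Col-0, and the part of this shift was not tested. It also moved with the scaling, to 43 members and 8.24% of the others with the summed signal, and to 42 members and 6.14% with the microRNA genes.

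In a limma fit over the 6 unsorted libraries, 133 members passed the filter, and 6 were called higher and 0 lower in *pMGH3::RTL1* than in WT Col-0 at an adjusted p of 0.05, against 0.475% of 11585 loci higher and 0.958% lower. At an unadjusted p under 0.05 there were 69 and 2, against 14.6% and 7.51% of loci. Of the 133 members that passed the filter, 41 did so only through the *pLAT52::RTL1* libraries, in which they were chosen to be high. The members were also chosen to be low in WT Col-0, so the calls are a description and no test of the members. With the 4 libraries of the comparison alone, 92 members passed and 1, *AT3G26934*, was called higher, against 0.0980% of 10208 loci. The count was 0 without either *pMGH3::RTL1* library, 1 without either *pLAT52::RTL1* library and 0 when scaled to the summed signal. Without WT Col-0 replicate 2 it was 37, or 27.4% of the members against 11.02% of all loci. *RPT3*, an ATPase of the proteasome, had 6.45 and 5.42 RPM in WT Col-0, 26.5 and 27.8 RPM in *pMGH3::RTL1*, and 23.2 and 20.98 RPM in *pLAT52::RTL1*. *AT4G09950*, a P-loop nucleoside triphosphatase, had 9.47 and 6.504, then 30.8 and 32.1, and 30.2 and 30.5 RPM in the same order. In both genes the constructs gave levels close to each other. *AT3G26934*, an uncharacterized protein, had 21.5 and 20.6 RPM in WT Col-0, 74.3 and 80.3 RPM in *pMGH3::RTL1*, and 169.8 and 82.0 RPM in *pLAT52::RTL1*. These 3 genes, with *ELP* and *CHX2*, had the highest ratios of the lower *pMGH3::RTL1* to the higher WT Col-0 library with 1 RPM added to each. *ELP* had 13.8 and 14.6 RPM and *CHX2* had 29.2 and 29.2 RPM in *pMGH3::RTL1*.

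In the fit of sorted pollen, 0 genes of any of the 12 lists were called higher in *nrpd1a-3* FTL. Called lower were 2 of 69 pectin enzymes and inhibitors, 2 of 20 arabinogalactan proteins and extensins, 1 of 13 proton pumps and 1 of 26 genes of the actin list. Of all loci 21.7% were called lower, but of the 3588 tested coding genes only 199 were, with 3 called higher. The lists hold coding genes, so the latter count is the closer background, and list counts this small are not read further. The other lists gave 0 lower. Because the pattern in *pMGH3::RTL1* moved with the scaling, the lists are only counted there, with 1 of 20 proton pumps, 1 of 43 actin genes and 1 of 19 vegetative cell markers called higher and 0 in the other lists, and 0 called lower, against 0.475% and 0.958% of all loci. Among the 6801 coding genes tested there, 25 were called higher and 43 lower.

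The coding genes outside the group with the most similar profile were *AT1G06700*, a protein kinase (Pearson r = 0.950), *AT5G24240*, a phosphatidylinositol 4-kinase gamma-like protein (r = 0.948), and *AVA-P2*, a vacuolar ATPase subunit (r = 0.916). The likeness is to the mean log2(RPM + 1) of the members over 10 libraries, which share their scaling, and is a description. *AT5G24240* had 59.6 and 82.4 RPM in WT Col-0 and 502 and 214 RPM in *pLAT52::RTL1*, and missed the rule by its lower line.

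How far the group depends on single lines was described by choosing genes with 1 *pLAT52::RTL1* library and reading the other. Chosen without replicate 1, 265 genes met the rule, and the replicate left out was above both WT Col-0 libraries for 252 of them (95.1%) and reached 3 times for 143 (54.0%), against 52.7% and 2.66% of the 4932 genes at the minimum that were not chosen. Chosen without replicate 2, 354 genes met it, with 341 (96.3%) above and 142 (40.1%) at 3 times, against 56.7% and 0.367% of 4359. The WT Col-0 libraries, required to be low by the choice, are shared between choice and reading, so these shares are no independent test. Replicate 1 was the higher line for 114 of the 135 members, while the rule fixed the direction in both.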

How the data were processed

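The authors deposited, per library, a signal for each TAIR10 gene and RNA length, made from single-end reads of 50 nt mapped with Bowtie without mismatches, each read divided by its genomic hits and scaled to RPM. Per-library sums lie far above the total that RPM allows, so the unit is called signal. Lengths above 30 nt, listed in 2 sorted libraries, were left out. Signal was summed over 18 to 30 nt per gene, with Python 3.11.15 and pandas 2.3.3. Values were not whole reads for all genes, so in place of DESeq2, which the study used, limma 3.58.1 in R 4.3.3 was run on log2(RPM + 1) with a variance trend, keeping loci that averaged 12 or more hit-weighted reads, 6 unsorted and 4 sorted libraries apart, with Benjamini-Hochberg adjustment over all loci, and it was tested on simulated data. Positions, products and promoters are from RefSeq TAIR10.1. The members, lists and tests were chosen with earlier results of these data known. Named genes are the 10 largest ratios, the 10 highest levels, the 3 nearest the limit on each side, extremes of the 21 and 22 nt share, the 5 highest *pMGH3::RTL1* ratios, up to 5 members past the *nrpd1a-3* test in each direction, list members and the 3 genes most alike, and other genes named in small counts were chosen after their values were seen. Alternatives were other scalings, filters, pseudocounts (0.1 and 5), lengths, a replicate block, limma-voom and leaving out each library. Depth limits genes of a few reads, and intervals were not given because reads are weighted.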

Additional observations from a re-analysis of the deposited data

How the results depend on the processing

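The number of members was 70 scaled to the summed signal, 66 scaled to the microRNA genes, 315 with a minimum of 5 RPM, 322 at 2 times and 41 at 5 times the higher WT Col-0 library, 67 from 21 and 22 nt alone, and 252 to 354 with a library left out. Of the first 2 sets, 67 and 66 genes were among the 135. The members' median log2 difference between *nrpd1a-3* FTL and WT FTL was 0.34 scaled to the summed signal, 1.12 to the microRNA genes and 2.03 to the median ratio, scalings that put the median of all loci at -1.46, -0.71 and 0.17. It was 1.09 from 23 and 24 nt alone and 0.67 to 1.06 with a library left out. No alternative turned its sign. Members called lower were 0 to 1 and called higher 0 to 13 with a library left out. Same-numbered sorted libraries deviated together (r = 0.57 over 7334 loci). With a replicate block, 36 of 106 members were called higher and 0 lower, against 9.33% and 48.2% of all loci. In the unsorted libraries (r = 0.09) the block gave 5 members higher, against 0.492% of all loci. In *pMGH3::RTL1* the median was 0.91, 0.20 scaled to the summed signal, 0.14 to the microRNA genes, 0.64 from 23 and 24 nt alone and 0.69 to 1.09 with a library left out. Its members called higher were 0 scaled to the summed signal, 3 without a variance trend, 2 from 21 and 22 nt, 3 from 23 and 24 nt, 1 with the 4 libraries of the comparison alone and 0 to 37 with a library left out, and members called lower were 1 and 2 under the first 2 scalings. The median 21 and 22 nt share was 31.4% of 18 to 24 nt and 21.7% to 26.0% by line. Leaving out the 12 members that share reads with another locus, chosen after seeing the data, moved no median beyond its spread. The cause of these shifts was not tested. With 2 libraries per group, a member that was not called may still have changed.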

Other observations

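Lengths from 31 to 45 nt were listed in replicate 1 of both sorted genotypes. There the members held 35.7 RPM in WT FTL, on 27 genes, and 27.2 RPM in *nrpd1a-3* FTL, on 21 genes, or 1.05% and 1.08% of the coding signal at these lengths. With 1 library each, this is a value with no test.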
